A study of Caenorhabditis elegans with 57 samples.

Results

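The 300 genes described here carried the highest H3K36me3 over their bodies in the germlines of *him-8* fathers, among 20258 *C. elegans* genes with a deposited score. H3K36me3, trimethylation of lysine 36 on histone H3, was measured by CUT&RUN, which uses an antibody-tethered nuclease to cut out the DNA around a histone mark. Each gene had a z-score per library, as deposited by the authors, and the genes were chosen by the mean of their H3K36me3 z-scores over the 2 *him-8* libraries. That choice makes their H3K36me3 in *him-8* fathers a description, with no test.

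H3K36me3 is laid down in worms by MET-1, which follows the transcribing polymerase, and by MES-4, which can keep the mark on germline-expressed genes after transcription has stopped. H3K27me3, the product of the worm PRC2 enzyme (MES-2 with its partners MES-3 and MES-6), marks silent chromatin, and in worm germlines it tends to lie where H3K36me3 does not. Genes that germ cells transcribe are therefore the known home of H3K36me3, while the X chromosome is largely silent in germ cells.

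The study asked whether chromatin lacking H3K27me3 is passed on through sperm. In the first cross, mothers were *fem-2(b245ts)* in the strain CB4856, and fathers came from N2. Fathers homozygous for *mes-3(bn35)* and *him-8(e1489)* gave offspring labelled M+P-, and fathers that instead carried *mes-3(bn35)* over the balancer hT2-GFP gave offspring labelled M+P+. Offspring of both histories carried 1 mutant copy each of *mes-3(bn35)*, *fem-2(b245ts)* and *him-8(e1489)*. RNA came from hermaphrodite germlines (2 libraries per history), male germlines (4 per history) and mixed-sex L1 larvae (3 per history). In the second cross, F1 hermaphrodites of both histories carried *mes-3(bn199)*, linked to a GFP- and FLAG-tagged *glh-1*, over a wild-type copy, and were *fem-2(b245ts)*. Their fathers were *mes-3(bn199)* homozygotes (M+P-) or carried that allele over hT2-GFP (M+P+), with 3 RNA libraries per history. F2 germlines, labelled GM+GP- (3 libraries), had the F1 genotype, a mother of that genotype and, per the labels, no father. Father germlines were *mes-3(bn35)* with *him-8(e1489)*, born to heterozygous mothers, or *him-8(e1489)* alone (3 libraries each), so both kinds of father shared *him-8(e1489)*, which raises the share of males. CUT&RUN for H3K36me3 and for H3K27me3 covered hermaphrodite germlines of both histories in each cross, F2 germlines and *him-8* fathers, with 2 libraries per group and mark. Strains were kept at 20 °C, those with *fem-2(b245ts)* at 15 °C, and females were made by raising *fem-2(b245ts)* worms at 25 °C. Each germline library pooled the distal parts of germlines from many day 1 adults. Crosses ran in 1 direction, so strain and parent of origin cannot be told apart in the allele data. A bias in read mapping between the strains cancels only in the interaction of allele and history, where it is common to both histories. Its part in the allele shares was not tested.

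RNA libraries held 5706650 to 19191934 counts, H3K36me3 libraries 1701400 to 41980395 and H3K27me3 libraries 2797547 to 25714782. Tissue labels were checked on marker RNA. The germ granule gene *pgl-1* averaged 234 to 317 RPKM over the germline groups (61.9 in F1 M+P- replicate 3, the lowest germline library) and 4.04 to 4.94 RPKM in L1 larvae, while the neuron gene *rab-3* was at 168 to 195 RPKM in larvae. Male M+P+ replicate 3 held 160.3 RPKM of the muscle myosin *unc-54*, the highest of any germline library. In male M+P+ libraries *rab-3* reached 11.0 RPKM. The intestine gene *vit-6* had 4.95 to 187 RPKM in F1 M+P- and 22.2 to 91.1 in F1 M+P+ libraries, and averaged 65.7 in F2 germlines. It had at most 15.0 RPKM in first-cross hermaphrodite and 8.91 in father libraries. The part of intestine RNA in the second-cross comparisons was not tested. F1 M+P- replicate 3 lacked RNA from much of chromosome V: of 92 chromosome V members with over 50 counts on average elsewhere, 69 had 0 counts in it, while no such member on chromosomes I to IV did. *mes-3* RNA was present in the mutants, at 41.9, 35.2 and 20.4 CPM (counts scaled to the library total) in *mes-3* fathers against 46.5, 40.5 and 38.7 in *him-8* fathers. Whether the allele lowers its own RNA is not given in the labels, so this level does not check the genotype.

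All 300 genes lay on autosomes. Of the members, 40 were on chromosome I, 58 on II, 37 on III, 71 on IV and 94 on V, and 0 on X, which holds 13.7% of all genes. Chromosome IV held 23.7% of members and 16.3% of all genes, and chromosome V 31.3% and 25.2%. Protein-coding genes made up 298 members and pseudogenes 2. Their exons summed to a median of 1154 bases, against 1120 bases over all genes. Some members stood side by side. Of the 298 protein-coding members, 82 (27.5%) had another member as a direct neighbour on either side among protein-coding genes. Members make up 1.56% of these genes, but with 2 neighbours per gene the share to set beside 27.5% is higher. The neighbouring members formed 37 runs, and the longest runs held 4 genes. One of these, on chromosome I, held *usp-48*, which encodes a ubiquitin protease, *smn-1*, the worm gene for the survival of motor neuron protein, *klp-16*, a kinesin gene, and *tspo-1*. The other, on chromosome V, held F46B6.12, *smg-4*, F46B6.4 and F46B6.5, of which *smg-4* acts in nonsense-mediated decay.

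The highest-scoring gene was Y73B6BL.45 on chromosome IV, with z-scores of 1.76 and 2.00 in the *him-8* libraries. It rested on only 25 and 71 reads. C28A5.2 on chromosome III, the fifth, rested on 605 and 1695 reads, with z-scores of 1.64 and 1.82. ZK616.3, ZK856.16, K10B2.4, ZK1248.11, *lelo-1*, C42C1.3, F18A1.7 and W02D3.12 made up the rest of the top 10, with means of 1.7028 to 1.7761. The lower edge was dense: the last members, F45F2.10, *pis-1* and T23G11.4, had means of 1.5203, 1.5202 and 1.5197. The first genes outside, *farl-11*, *mei-1* and *fars-3*, had 1.5194, 1.5192 and 1.5190. Either library alone would have kept 158 (replicate 1) or 215 (replicate 2) of the 300 in its own top 300. Membership near the edge therefore had no gap behind it.

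H3K36me3 stayed high on these genes in hermaphrodite germlines of every group. The mean z-score over the members was 1.49 ± 0.04 in first-cross M+P- and 1.52 ± 0.02 in M+P+ germlines (SD of library means, n = 2 each here and for the other z-scores). It was 1.18 ± 0.23 in F2 germlines, 1.35 ± 0.08 in F1 M+P- and 1.47 ± 0.06 in F1 M+P+ germlines. The *him-8* fathers, on which the genes were ranked, had 1.58 ± 0.05. The median member stood at the 97.0th to 98.0th percentile of all genes in these 5 hermaphrodite groups.

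No member fell below the median gene in any of the 5 groups. Members in the top 10% of genes numbered 283 in first-cross M+P- and 265 in M+P+ germlines, 264 in F1 M+P-, 270 in F2 and 271 in F1 M+P+ germlines. Among the top 300 genes of a group the overlap was smaller, with 94 members in F2 germlines and 126 in first-cross M+P- germlines at the ends of the range. The lowest values were 0.58 in F2 germlines and 0.74 in first-cross M+P+ germlines (T23G11.10).

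**Figure D1:**
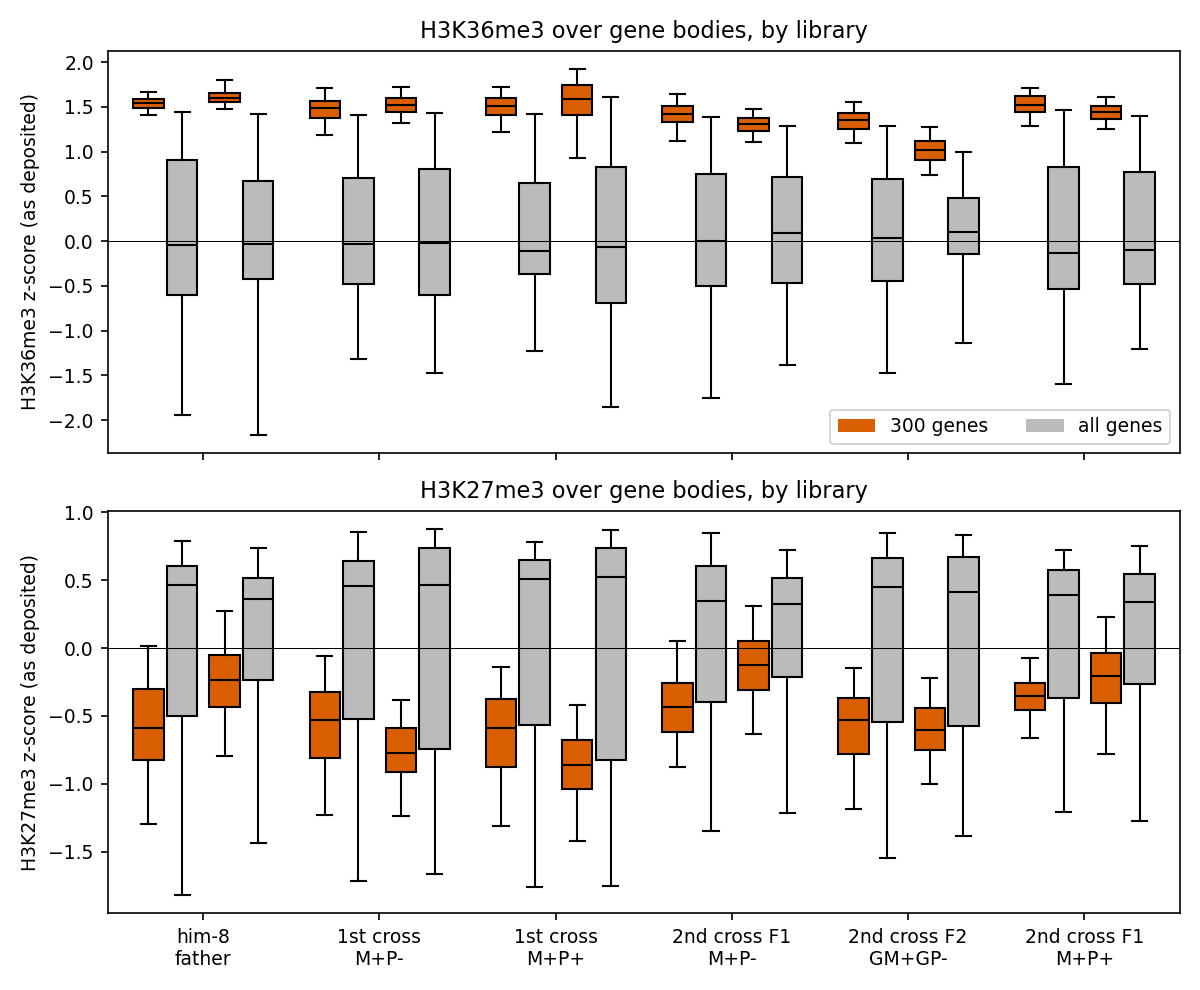
Deposited H3K36me3 (top) and H3K27me3 (bottom) z-scores of the 300 genes (orange) and all genes (grey) in each CUT&RUN library, 2 libraries per group. Boxes run from the lower to the upper quartile with a line at the median, and whiskers run over the 5th to 95th percentiles. The 300 genes sit above the box of all genes in H3K36me3 in every library and low in H3K27me3.

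H3K27me3, which took no part in the choice of genes, was low on nearly all of them. The mean z-score over members was -0.68 ± 0.14 in first-cross M+P- and -0.75 ± 0.17 in M+P+ germlines, and -0.59 ± 0.02 in F2, -0.28 ± 0.21 in F1 M+P- and -0.29 ± 0.09 in F1 M+P+ germlines. *him-8* fathers had -0.42 ± 0.25. The median member was at the 24.4th to 26.4th percentile of all genes, and 298 to 300 members lay below the median gene in each group. The 5 members highest in H3K27me3 in *him-8* fathers were Y73B6BL.45 (0.73), C47E8.11 (0.49), Y57E12AL.2 (0.38), F46B6.12 (0.31) and C14C10.2 (0.19). Y73B6BL.45 was thus at the top of both rankings, and 3 of the 5 had little or no RNA in hermaphrodite germlines, as described further on.

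Nearly all of the genes were transcribed in every germline. RNA is given per exon length, as RPKM (counts scaled to exon length and to the library total). The median member had 48.7 ± 2.06 RPKM in *mes-3* fathers and 47.3 ± 4.84 in *him-8* fathers (SD over libraries, n = 3 each). It had 52.5 ± 4.38 in M+P- and 53.0 ± 7.52 in M+P+ male germlines (n = 4 each), and 77.3 ± 0.656 in M+P- and 77.7 ± 2.15 in M+P+ hermaphrodite germlines (n = 2 each). The median of all genes was 0.163 to 0.707 RPKM in these 6 groups. F2 germlines had 72.7 ± 4.08 RPKM and F1 M+P+ germlines 69.9 ± 2.76 (n = 3 each), while the F1 M+P- libraries ran from 26.7, in replicate 3, to 77.3 with a mean of 57.4. L1 larvae, most of whose cells are somatic, had 20.6 ± 0.327 RPKM in M+P- and 18.3 ± 0.857 in M+P+ animals (n = 3 each), with all genes at 4.64 and 3.85. In these bulk samples, fewer cells of a type and less RNA per cell cannot be told apart.

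At 1 RPKM or more, 297 of 300 members were detected in the father and male groups, 292 or 293 in the hermaphrodite, F1 and F2 groups, and 282 (M+P-) and 277 (M+P+) in L1 larvae. The highest in *him-8* fathers were *ife-1*, an eIF4E translation factor, at 1065 RPKM, and *kdp-1*, which encodes a KASH domain protein, at 590.4. The ubiquitin-conjugating enzyme gene *let-70* had 602, 493 and 513 RPKM in the 3 libraries, *ife-3*, another eIF4E gene, 493, 482 and 496, and the linker histone gene *hil-4* 437, 451 and 493. At the other end stood Y73B6BL.45, Y57E12AL.2 and F57C2.4, all listed at 0 in *him-8* fathers, then T23G11.10 with 5.32 RPKM and *mboa-2* with 7.43.

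**Figure D2:**
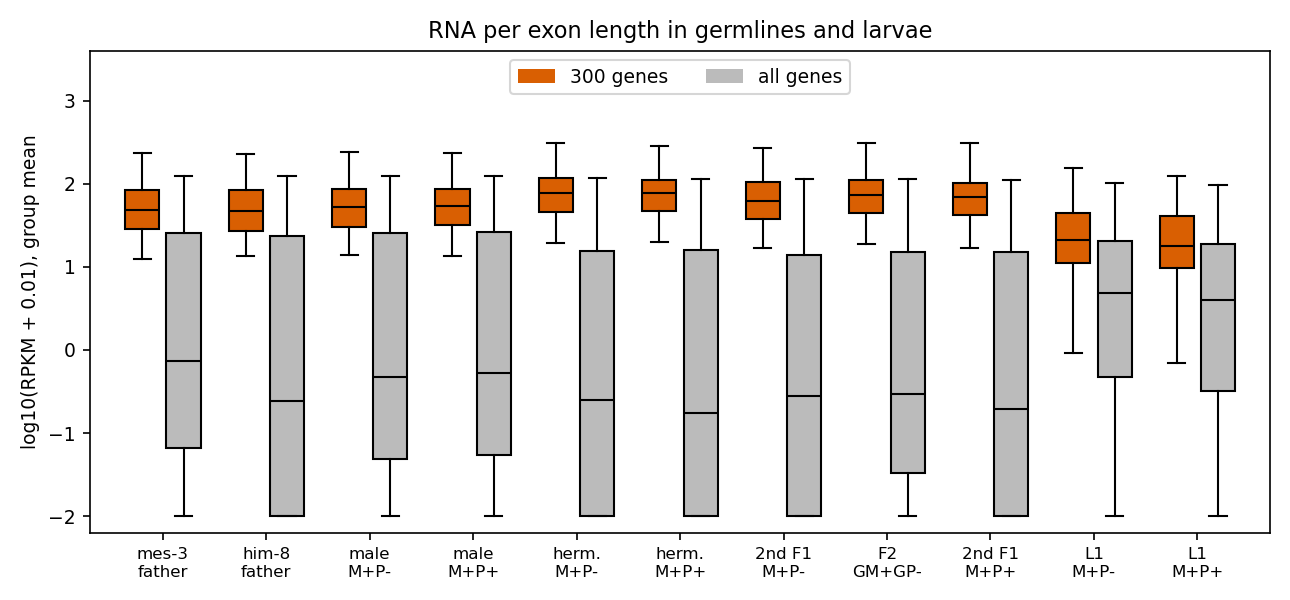
RNA per exon length, as log10(RPKM + 0.01) of the group mean, for the 300 genes (orange) and all genes (grey) in each RNA group. Boxes run from the lower to the upper quartile with a line at the median, and whiskers run over the 5th to 95th percentiles. The orange medians are highest in hermaphrodite germlines (77.3 and 77.7 RPKM) and lowest in L1 larvae (20.6 and 18.3 RPKM).

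Within the members, H3K36me3 and RNA level ran together loosely or not at all. Across the 300 genes, Spearman's rho between the *him-8* H3K36me3 z-score and *him-8* RPKM was -0.05, against 0.67 across 19795 genes. In first-cross M+P+ hermaphrodite germlines it was 0.26 across members and 0.69 across all genes, and in F1 M+P+ germlines -0.11 and 0.66. These are descriptions across genes, which are not independent replicates, and the members span a narrow range of H3K36me3. For H3K27me3 and RNA, rho was -0.17 across members and -0.58 across all genes in M+P+ hermaphrodites.

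Between the sexes 47.1% of the members tested were called different in RNA, a smaller share than over all genes, with more of them lower in males. Of 297 members tested with edgeR's quasi-likelihood test at a Benjamini-Hochberg adjusted p of 0.05, 49 (16.5%) were higher in male M+P+ germlines (n = 4) and 91 (30.6%) were lower than in hermaphrodite M+P+ germlines (n = 2). Over all 10231 genes tested, 52.9% were called, 30.6% higher and 22.3% lower. The median log2 fold change was -0.13 over the members and 0.08 over all genes. DESeq2 called 49 higher and 104 lower. Each hermaphrodite library weighed heavily: without replicate 1 the counts were 15 and 36, and without replicate 2 they were 22 and 49. Without male replicate 3, the library with *unc-54* RNA, they were 50 and 86. A list of 32 muscle genes summed to 219 to 1844 RPKM in male and 464 to 469 in hermaphrodite libraries, and 24 intestine genes to 129.8 to 479.7 and 178 to 198.

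Genes called higher in males included *ife-1*, *pyc-1* and *dlst-1*. *ife-1* had 839.9, 902, 781 and 784 RPKM in the 4 male libraries and 299.7 and 323 RPKM in the 2 hermaphrodite libraries, a log2 fold change of 1.63 ± 0.10 (SE, adjusted p = 8.87e-05). *pyc-1*, the pyruvate carboxylase gene, had 206, 241, 245 and 242 RPKM in males and 100.1 and 92.7 in hermaphrodites (1.50 ± 0.11, adjusted p = 0.00017). *dlst-1*, a subunit gene of the 2-oxoglutarate dehydrogenase complex, had 378, 393, 363 and 346 RPKM in males and 207 and 211 in hermaphrodites (1.05 ± 0.07, adjusted p = 0.000128). Male and hermaphrodite values did not overlap for any of these genes, which were named because the test called them. *kdp-1* was at 507 to 542 RPKM in males and 265 and 306 in hermaphrodites, and *pigk-1*, a subunit gene of the GPI transamidase, at 99.1 to 117 and at 60.1 and 52.0. *drr-2* (275 to 296 RPKM in males, 174 and 178 in hermaphrodites) and K08F4.3 (326 to 396 in males, 164 and 177 in hermaphrodites) rose as well.

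Genes lower in males included several that act in oocytes and early embryos. *oma-2*, a zinc finger RNA-binding protein of oocyte maturation, had 38.1, 21.5, 17.6 and 18.7 RPKM in males and 471 and 443 RPKM in hermaphrodites, a log2 fold change of -4.03 ± 0.31 (adjusted p = 0.000174). *puf-5*, a Pumilio-family repressor of oocyte mRNAs, had 90.9, 37.0, 22.9 and 12.5 RPKM in males and 858 and 828 in hermaphrodites (-4.16 ± 0.72, adjusted p = 0.00368). *pos-1*, another zinc finger gene, had 115, 48.8, 30.9 and 23.6 RPKM in males and 758 and 682 in hermaphrodites (-3.51 ± 0.60, adjusted p = 0.00355). For *puf-5* and *pos-1*, male replicate 1 was the highest of the 4 and the spread among males was wide. The yolk receptor gene *rme-2* showed the same order of male libraries, with 156, 99.5, 58.1 and 38.9 RPKM, and 724 and 652 RPKM in hermaphrodites (-2.75 ± 0.50, adjusted p = 0.00454). These 4 were all the members of a list of 38 oogenesis genes, and all 4 fell. The whole list summed to 1264 to 3134 RPKM in male and 14156 to 15112 in hermaphrodite libraries.

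Outside the oocyte list, *mcm-7*, a subunit of the replicative helicase, had 109, 88.4, 78.0 and 73.1 RPKM in males and 342 and 309.8 in hermaphrodites (-1.68 ± 0.15, adjusted p = 0.000276). *gon-4*, needed for early cell divisions of the gonad, was at 10.1 to 13.0 RPKM in males and at 56.3 and 47.3 in hermaphrodites (-1.90 ± 0.10, adjusted p = 7.49e-05), and the poly(U) polymerase gene *pup-2* at 106 to 137 and at 397 and 375 (-1.44, adjusted p = 0.000105). *rif-1.1*, *pgm-3*, *ent-1*, a nucleoside transporter gene, and *pis-1* fell too, by 1.53, 2.17, 0.84 and 0.80 on the log2 scale. Of a list of 53 replication and cell cycle genes, 7 were members, of which *mcm-7* and *cyb-2.2*, a B-type cyclin gene (-1.71 ± 0.29, adjusted p = 0.00339), fell. The other 5 (*pold-1*, *air-2*, *ndc-80*, *smc-4* and *wee-1.3*) did not pass the test, with log2 fold changes between -0.27 and 0.14.

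Other functional lists held few members, and their male values were mixed. The synaptonemal complex gene *syp-2* and *zim-3*, a zinc finger gene of chromosome pairing, were the 2 meiosis members of 53 listed, with 0.32 and -0.17 and adjusted p of 0.118 and 0.216. Of 3 chromatin members among 64 listed, *let-418*, the Mi-2 helicase gene (0.42), and *cec-5*, a chromodomain gene (0.41), rose and *swsn-4*, the SWI/SNF ATPase gene (-0.20, adjusted p = 0.0455), fell. Of 5 members among 53 translation genes, *ife-1* and *eif-3.G* (0.48, adjusted p = 0.0152) rose, and *ife-3*, *eif-3.K* and *sars-1* did not pass. *skr-1*, a Skp1 homolog gene (0.35), was the only one of 4 proteasome and ubiquitin members, out of 52 listed, to pass. *spe-39* (-0.44, adjusted p = 0.00721), the only member among 69 spermatogenesis genes, fell, although the list's summed RNA was 11462 to 33193 RPKM in male and 199 to 209.6 in hermaphrodite M+P+ germlines. *tofu-1*, the only one of 44 germ granule and small RNA genes, rose (0.46), *snb-1*, the synaptobrevin gene and the only neuron member of 28, fell (-0.83), and *prp-38* and *repo-1*, the splicing members of 37, did not pass.

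In hermaphrodites, H3K36me3 values overlapped widely among the 3 classes by sex. All members were chosen for high H3K36me3 in *him-8* fathers, so the classes had little room to differ in this mark. In first-cross M+P+ germlines the median z-score was 1.55 over the 49 members higher in males, 1.55 over the 91 lower in males and 1.53 over the 157 not called. The quartiles of the first class were 1.42 and 1.65 and those of the second 1.45 and 1.62. H3K27me3 medians were -0.71, -0.73 and -0.73.

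**Figure D3:**
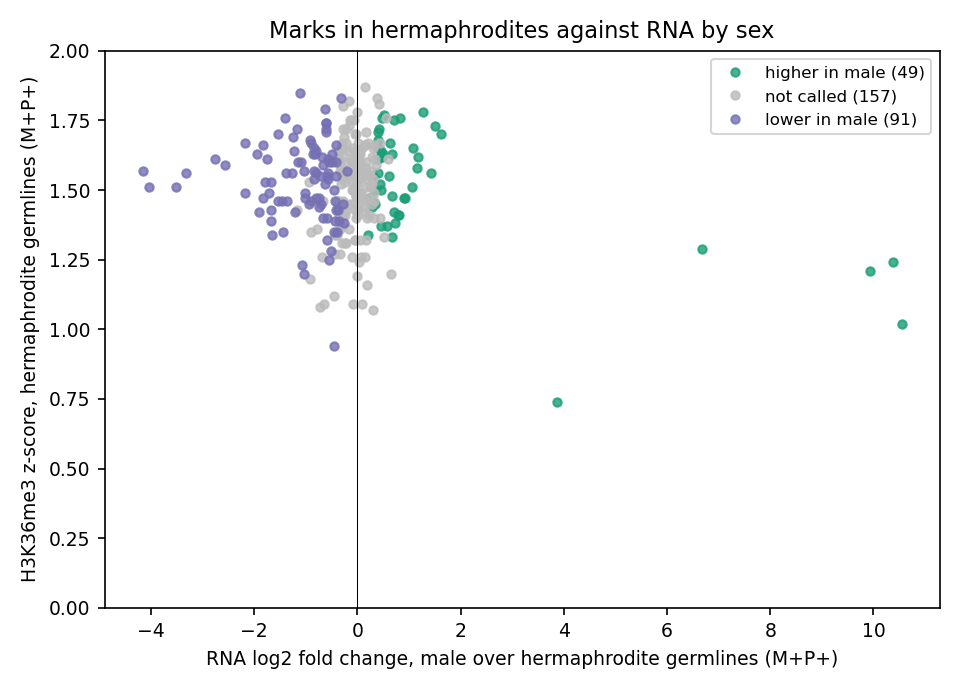
Each point is one of the 297 members tested, with the RNA log2 fold change of male over hermaphrodite M+P+ germlines on the x axis and the mean H3K36me3 z-score of the 2 M+P+ hermaphrodite libraries on the y axis. The classes overlap in height, and 5 points over 3 on the x axis stand apart at z-scores of 0.74 to 1.29. The fitted x values of F35H8.4, F59B2.15 and C47E8.11, which had 0 counts in hermaphrodites, depend on the prior count and are no measure of size.

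Those 5 members had RNA in males and almost none in hermaphrodites, and were chosen for description after their values were seen. They passed the filter only through the male libraries, and the filter left them out of the tests within hermaphrodites. C42C1.3 had 30.2, 44.4, 41.8 and 48.0 RPKM in male M+P+ libraries and 0.413 and 0.484 in hermaphrodite M+P+ libraries, from 1250 and 7 counts. F35H8.4 had 20.7, 32.1, 41.2 and 81.3 RPKM in males and 0 in both hermaphrodite libraries, at least 114-fold higher against a floor of 3 counts over the hermaphrodite group. F59B2.15 had 25.4, 34.1, 31.3 and 42.9 RPKM in males (at least 104-fold higher) and C47E8.11 had 30.6, 35.8, 40.5 and 47.8 (at least 76.4-fold higher), both with 0 in hermaphrodites. T23G11.10 had 2.24, 7.80, 6.76 and 9.91 RPKM in males and 0.688 and 0.363 in hermaphrodites, from 200 and 8 counts.

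Hermaphrodite chromatin nevertheless held H3K36me3 over these 5 genes. C42C1.3 had z-scores of 1.42 and 1.61 in M+P- and 1.59 and 1.00 in M+P+ hermaphrodites, and F59B2.15 had 1.02 and 1.21 in M+P- and 1.11 and 1.38 in M+P+. C47E8.11 had 0.93 and 1.21 in M+P- and 1.13 and 1.30 in M+P+. F35H8.4 had 1.59 and 1.55 in M+P- and 1.78 and 0.27 in M+P+, and T23G11.10 had 1.24 and 1.37 in M+P- and 1.33 and 0.16 in M+P+. Every value was 0.93 or higher save those of F35H8.4 and T23G11.10 in M+P+ replicate 2. In M+P+ hermaphrodites 4 of the 5 were among the 20 members lowest in H3K36me3, and for F35H8.4 and T23G11.10 this rested on replicate 2, the library of 41980395 counts.

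The remaining RNA-poor members had H3K36me3 with at most 4 RNA counts in any library. Y73B6BL.45, the highest-ranked gene, was detected in 1 of 33 RNA libraries (1.10 RPKM, 2 counts, in M+P- hermaphrodites). Its H3K36me3 z-scores were 1.71 and 1.58 in M+P- and 1.28 and 1.57 in M+P+ hermaphrodites. Y57E12AL.2 had RNA reads in 9 of the 33 libraries, 6 of them male and 0 of them first-cross hermaphrodite, and H3K36me3 z-scores of 1.55 and 1.61 in M+P- and 1.69 and 1.79 in M+P+ hermaphrodites. F57C2.4 had RNA reads in 10 libraries, of which 2 were male and 2 first-cross hermaphrodite, with at most 2 counts in each, and z-scores of 1.47 and 1.50 in M+P- and 1.43 and 1.60 in M+P+. Several RNA-poor members had transcribed neighbours, given here as chosen after the fact: *htp-2*, a HORMA domain gene of meiosis, beside Y73B6BL.45 (80.5 RPKM in M+P+ hermaphrodites), *mdt-6*, a Mediator subunit gene and itself a member, beside Y57E12AL.2 (116), *rpl-34*, a ribosomal protein gene, beside C42C1.3 (787), *hsp-90*, the chaperone gene, beside C47E8.11 (2273), and *gld-1*, a translational repressor gene, beside T23G11.10 (820.0). Other neighbours had little RNA, as *exc-7* beside F35H8.4 (1.63 RPKM in M+P+ hermaphrodites, H3K36me3 z-score -0.19) and *gasr-8* beside C47E8.11 (0.748 RPKM, z-score 0.48). The sources used here do not give how reads near 2 genes were counted, and the part of the neighbours was not tested.

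Most of the genes were higher in germlines than in larvae. Of 292 members tested, 226 (77.4%) were called higher in M+P+ hermaphrodite germlines (n = 2) and 15 (5.14%) lower than in M+P+ L1 larvae (n = 3). Over all 14714 genes tested, 83.2% were called, 28.9% higher and 54.3% lower. The median log2 fold change was 1.49 over members and -2.69 over all genes. DESeq2 called 234 higher and 12 lower, and with any 1 library left out 218 to 243 members were called in all. This comparison shares the hermaphrodite libraries with the one between the sexes.

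The 226 germline-higher members had a median of 79.8 RPKM in germlines and 15.6 in larvae, so their RNA remained present in larvae. A subset of 50 with a log2 fold change over 3 had 105 RPKM in germlines and 2.54 in larvae, and 15 of them were under 1 RPKM in larvae. The oocyte genes were in this subset. *puf-5* was at 0.532, 0.983 and 1.02 RPKM in the larval libraries (9.74 ± 0.25, adjusted p = 2.44e-07), *pos-1* at 1.26, 0.698 and 0 (9.90 ± 0.63, adjusted p = 5.63e-06), *rme-2* at 0.389, 1.19 and 0.670 (9.62 ± 0.37, adjusted p = 6.20e-07) and *oma-2* at 0.620, 1.41 and 4.21 (7.55 ± 0.62, adjusted p = 1.99e-05). Cell cycle regulators rose as well. *cdc-25.1*, the phosphatase gene that drives germline divisions, had 149.8 and 128 RPKM in germlines and 2.59, 2.77 and 2.18 in larvae (5.57 ± 0.17, adjusted p = 3.1e-07). *wee-1.3*, a kinase gene that holds oocytes in arrest, had 184 and 172 RPKM in germlines and 5.75, 4.66 and 4.27 in larvae (4.97 ± 0.18, adjusted p = 5.39e-07). *trcs-1* (392 and 318 RPKM in germlines, 0.558, 0.103 and 0.311 in larvae) and K08F4.3 (164 and 177 in germlines, 1.52, 2.07 and 1.61 in larvae) were almost absent from larvae. All 7 replication and cell cycle members and both meiosis members rose.

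The 15 genes higher in larvae had medians of 128 RPKM in germlines and 207 in larvae, so they were well expressed in both. *eat-6*, the sodium and potassium pump gene, had 288 and 283 RPKM in germlines and 976, 1071 and 942 in larvae (-2.02 ± 0.12, adjusted p = 3.59e-06). *lgg-1*, the autophagy gene of the Atg8 family, had 188 and 183 RPKM in germlines and 786, 1219 and 889.9 in larvae (-2.59 ± 0.20, adjusted p = 1.31e-05). *kdp-1* had 265 and 306 RPKM in germlines and 572, 511 and 514 in larvae (-1.11, adjusted p = 0.000338), so that its RNA was lower in hermaphrodite germlines than in male germlines and in larvae. *snb-1* fell by 1.20 on the log2 scale and *skr-1* by 0.89, with T23G7.3 (134 and 129 RPKM in germlines, 277, 251 and 230.0 in larvae) and ZK632.9 (298 and 312 in germlines, 392, 545 and 454 in larvae) beside them. *his-35*, an H2A histone gene with near-identical copies, had 31.7 and 35.0 RPKM in germlines and 155, 259 and 208 in larvae, and its counts are uncertain. The median H3K36me3 z-score in M+P+ hermaphrodites was 1.57 over the 15 and 1.54 over the 226. All members were chosen for high H3K36me3 in *him-8* fathers, so the classes had little room to differ.

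Between M+P- and M+P+ offspring, almost none of the 300 genes was called different in RNA. In first-cross hermaphrodite germlines 1 of 292 members tested was called, while 9.74% of all 8409 genes were (5.11% higher and 4.63% lower). It was *clec-91*, a C-type lectin gene, with 177 and 175 RPKM in M+P- and 231 and 227 in M+P+ libraries (log2 fold change -0.38 ± 0.06, adjusted p = 0.00216). In the second cross its values overlapped, at 219, 233 and 273 RPKM in M+P- and 220.3, 249.9 and 223 in M+P+ germlines. DESeq2 also called 1 member, 13 had an unadjusted p under 0.05, and without M+P- replicate 2 there were 5 calls.

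In the other offspring no member was called by edgeR or by DESeq2. In male germlines 3 of 297 members had an unadjusted p under 0.05, and 0.490% of all genes were called. In L1 larvae 16 of 289 did, and 0.00684% of all genes were called. A direct test of whether the M+P- effect differed between male and hermaphrodite germlines called 0 of 297 members and 0% of all 11560 genes, with 0 members at an unadjusted p under 0.05 in edgeR and 2 in DESeq2.

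In second-cross F1 germlines 0 of 292 members were called and 0% of all genes, with 0 members at an unadjusted p under 0.05 and 0 calls by DESeq2. The median log2 fold change was -0.39 over members and -0.06 over all genes. Without M+P- replicate 3, the library short of chromosome V RNA, the medians were 0.02 and 0.00. Then 182 genes were called higher and 81 lower, of which 0 were members, and 3 members had an unadjusted p under 0.05.

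Between the kinds of father, small differences were called in 5 of 297 members (1.68%), 2 of them higher and 3 lower in *mes-3* fathers, and in 8.33% of all genes, 7.01% higher and 1.32% lower. C48B4.7 had 76.1, 81.1 and 72.8 RPKM in *mes-3* fathers and 47.7, 44.7 and 53.9 in *him-8* fathers (0.60 ± 0.12, adjusted p = 0.0227), and F35D11.4 had 75.0, 81.5 and 71.3 in *mes-3* and 59.4, 51.8 and 55.3 in *him-8* fathers (0.40 ± 0.10, adjusted p = 0.0443). Lower in *mes-3* fathers were *pgap-1* (51.4, 47.2 and 47.3 RPKM, against 64.4, 62.8 and 70.9 in *him-8* fathers, adjusted p = 0.0188), *acdh-13*, an acyl-CoA dehydrogenase gene (45.1, 40.3 and 40.4, against 61.9, 50.0 and 51.8 in *him-8* fathers, adjusted p = 0.0304) and *usp-48* (70.8, 76.8 and 71.7, against 93.9, 89.2 and 83.3 in *him-8* fathers, adjusted p = 0.0352). The groups did not overlap for any of the 5 genes, which were picked by the test on these same libraries. The calls were not stable: leaving out *him-8* replicate 2, *mes-3* replicate 2 or *mes-3* replicate 3 left 0, without *him-8* replicate 1 there was 1, without *mes-3* replicate 1 there were 2, and without *him-8* replicate 3 there were 6. DESeq2 called 8. Over all members the median was -0.03, against 0.03 over all genes. Summed somatic marker RNA overlapped between the kinds of father: 19 somatic gonad genes gave 82.3 to 100.0 RPKM in *mes-3* and 61.1 to 86.5 in *him-8* libraries, 32 muscle genes 326 to 612 and 299 to 424, 24 intestine genes 126 to 455 and 141 to 337, and 27 pharynx and hypodermis genes 105 to 365 and 144 to 337. The neuron list of 28 genes gave 104 to 162 RPKM in *mes-3* and 102 to 117 in *him-8* libraries. Single somatic markers did not all overlap. The somatic gonad gene *lim-7* had 4.42 to 10.5 RPKM in *mes-3* and 0.447 to 0.934 in *him-8* libraries. The neuron gene *unc-31* had 2.94 to 5.13 in *mes-3* and 0.176 to 0.459 in *him-8* libraries. *unc-54*, *myo-3*, *rab-3*, *ges-1* and *vit-6* overlapped. The part of somatic RNA in these calls was not tested.

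**Figure D4:**
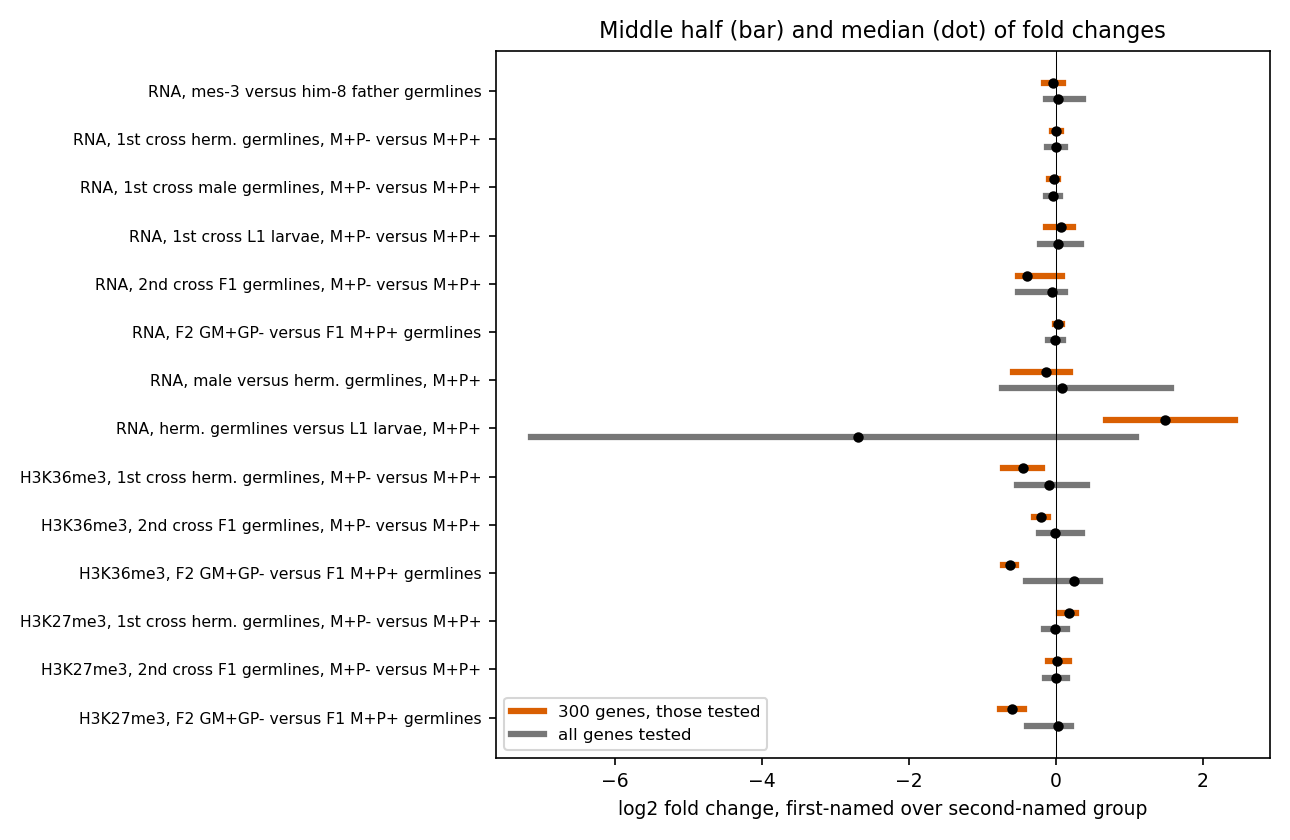
Median (dot) and interquartile range (bar) of log2 fold changes, first-named over second-named group, for the members tested (orange) and all genes tested (grey) in each RNA and CUT&RUN comparison. Members and all genes lie near 0 in most comparisons by history. The orange medians stand apart from the grey in germlines against larvae (1.49 and -2.69) and in both marks of F2 against F1 germlines (-0.62 and 0.24 for H3K36me3, -0.59 and 0.02 for H3K27me3).

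H3K36me3 counts of these genes were not called different by history either. In the first cross 0 of 300 members and 0% of all genes were called, with 0 members at an unadjusted p under 0.05 in edgeR, and 0 calls and 3 such members in DESeq2. The member median was -0.45 and that of all genes -0.09, with 254 members below 0, but this turned on the unlike M+P+ libraries. Without M+P+ replicate 2 the member median was 0.15, and without M+P+ replicate 1 it was -0.88, with 10 members called higher and 189 lower. In the second-cross F1, 0 members were called (11 at an unadjusted p under 0.05, 0 calls by DESeq2), against 0.121% of all genes. With same-numbered libraries as blocks, some members were called in the F1, as given in the last section. The member median was -0.19 there and that of all genes -0.01, with 271 members below 0, and without M+P- replicate 2 there was 1 call.

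H3K27me3 counts showed the same lack of calls, with 0 members and 0% of all genes in both crosses and 0 calls by DESeq2. In the first cross 1 member had an unadjusted p under 0.05, and the median was 0.17 over members and -0.01 over all genes. With same-numbered libraries as blocks, a few members were called in the first cross, as given in the last section. In the second cross 6 members had an unadjusted p under 0.05, with medians of 0.02 and 0.00. Without second-cross M+P- replicate 2 there were 3 calls. In the first cross the member median ran from -0.15 to 0.60 with 1 library left out, so its sign depended on a single library.

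H3K27me3 was lower on many of these genes in F2 GM+GP- germlines than in F1 M+P+ germlines. No member was called in H3K36me3 or in RNA. For H3K27me3, 89 of 300 members (29.7%) were called lower and 0 higher, and 9.91% of all 29073 genes were called lower and 0.650% higher. The median log2 fold change was -0.59 over members and 0.02 over all genes, and 299 members were below 0. DESeq2 called 73 lower. Without F1 M+P+ replicate 2 there were 23 calls, and with each of the other libraries left out 71 to 100. These values share the F1 M+P+ libraries with the F1 comparison by history, and generation differs along with history. By mean H3K27me3 z-score over members, F2 germlines (-0.59) were near first-cross M+P- (-0.68) and M+P+ (-0.75) germlines. F1 germlines of both histories were higher, at -0.28 in M+P- and -0.29 in M+P+.

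R151.8 had 8.48 and 10.1 H3K27me3 CPM in F2 and 22.7 and 23.8 in F1 M+P+ libraries (-1.32 ± 0.22, adjusted p = 0.000616). *lin-5*, a gene of spindle positioning, had 11.4 and 11.6 in F2 and 25.0 and 28.6 in F1 M+P+ (-1.22 ± 0.20, adjusted p = 0.000672), and F46B6.5, of the chromosome V run named above, had 17.3 and 20.1 in F2 and 36.3 and 38.3 in F1 M+P+ (adjusted p = 0.00104). F2 and F1 values did not overlap for these genes, which had the smallest adjusted p in the same test. *mma-1* (-0.91), *nse-4*, a gene of the SMC-5/6 complex (-1.25), *rde-1*, the Argonaute gene of RNA interference (-0.95), *brap-2* (-0.89) and *aagr-3* (-0.78) followed, with adjusted p of 0.00134 to 0.00378. By chromosome, 17 of 40 members on I were lower, 15 of 58 on II, 10 of 37 on III, 22 of 71 on IV and 25 of 94 on V, and the chromosome medians ran from -0.76 to -0.51.

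For H3K36me3, 0 of 300 members and 0% of all genes were called, but 128 members had an unadjusted p under 0.05 in edgeR and 172 in DESeq2, which also called 0. The median was -0.62 over members and 0.24 over all genes, with 299 members below 0. Since all genes moved by over 0.1, the shift relative to them was -0.86, and with RLE scaling it was -0.84 (-0.76 over members and 0.08 over all genes). With same-numbered libraries as blocks, many members were called, as given in the last section. The F2 libraries differed from each other. The mean z-score over members was 1.34 in replicate 1 and 1.01 in replicate 2, and the members' share of all counts was 2.18% and 1.58%, against 2.68% and 2.29% in F1 M+P+ libraries. Without F2 replicate 1, 275 members were called lower (median -1.21), and without F2 replicate 2, 0 were (median -0.34).

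R151.8 had 107 and 81.2 H3K36me3 CPM in F2 and 142 and 124 in F1 M+P+ libraries, *lin-5* 117 and 79.9 in F2 and 139 and 107 in F1 M+P+, and F46B6.5 154 and 115 in F2 and 187 and 157 in F1 M+P+. All 89 members called lower in H3K27me3 were also below 0 in H3K36me3, and 298 of 300 members were below 0 in both. Since 299 members were below 0 in each mark, these counts were nearly fixed beforehand. They show no gene-by-gene link between the marks. The members' share of the library was lower in F2 in both marks: in H3K27me3 they took 0.351% and 0.346% of counts in F2 and 0.488% and 0.558% in F1 M+P+ libraries. The part of these shares in the result was not tested.

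No difference in RNA was called between these groups. Of 292 members tested 0 were called, while 3.21% of all genes were, with 14 members at an unadjusted p under 0.05 and 0 calls by DESeq2. The median was 0.03 over members and -0.01 over all genes. No member called in H3K27me3 was therefore called in RNA.

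Reads over sequence differences between the strains put H3K36me3 of these genes close to evenly on both parental genomes. In first-cross germlines 52.8% and 53.2% of the members' H3K36me3 allele reads came from the sperm genome in M+P- libraries and 52.1% and 53.5% in M+P+ libraries. Over all genes the shares were 56.9% and 59.0% in M+P- and 54.3% and 54.8% in M+P+. In the second cross the members had 53.2% and 52.5% in F1 M+P-, 48.4% and 48.9% in F2 and 51.0% and 51.3% in F1 M+P+ libraries. All genes had 58.2% and 57.5% in F1 M+P-, 54.2% and 55.2% in F2, and 55.0% and 54.5% in F1 M+P+. The higher sperm share that all genes showed in M+P- germlines was thus smaller on the members, whose M+P- and M+P+ libraries overlapped in the first cross and did not in the second. F2 worms had no father, so the parental alleles segregated, and F2 shares also depend on which copies the worms received. In F2 H3K36me3 replicate 2, all genes on chromosome IV had a sperm share of 66.5% and those on V 52.1%.

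H3K27me3 allele reads leaned to the oocyte genome in M+P- germlines. In each H3K27me3 library, 107 to 110 members had an allele read. The sperm share over members was 40.3% and 40.6% in first-cross M+P- libraries and 52.1% and 50.6% in M+P+ libraries, with all genes at 49.1% and 45.8% in M+P- and 52.4% in both M+P+ libraries. In the second cross it was 41.8% and 42.2% in F1 M+P-, but also 41.8% in one F1 M+P+ library and 52.1% in the other. In F2 germlines, where the parental alleles segregated, it was 43.0% and 50.8%. The groups of the first cross did not overlap, while in the second cross the F1 M+P- libraries lay within the range of the F1 M+P+ libraries. The first-cross M+P- shares came from 2327 and 2152 reads, with Wilson 95% intervals of 38.3% to 42.3% and 38.5% to 42.7%, and the M+P+ shares from 2075 and 1503 reads, with 50.0% to 54.3% and 48.0% to 53.1%. Intervals and floors cover counting error only. The deposited allele z-scores, given for 110 members, ran the same way: the sperm score minus the oocyte score averaged -0.46 and -0.29 in first-cross M+P- and -0.03 and -0.00 in M+P+ libraries.

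**Figure D5:**
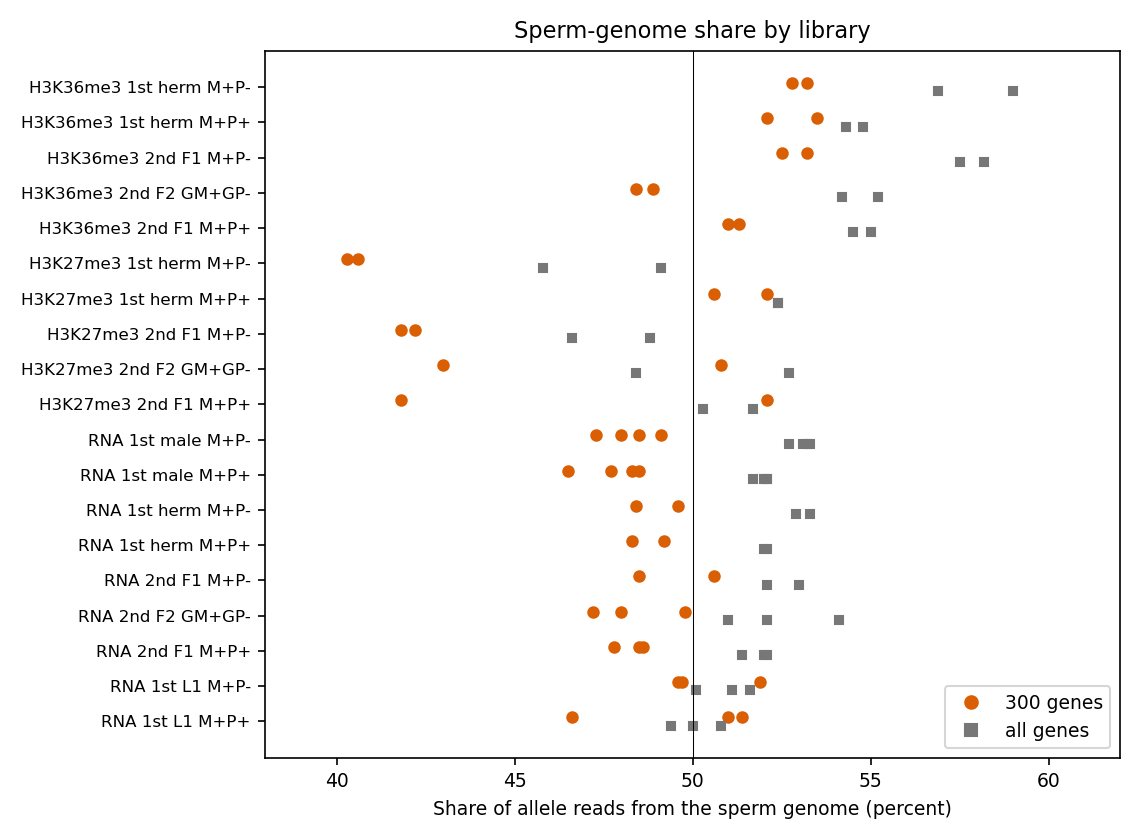
Share of allele-assigned reads that came from the sperm genome, in percent, summed over the 300 genes (orange circles) or all genes (grey squares) in each library. Of the 300 genes, 107 to 111 had an allele read in each CUT&RUN library and 64 to 96 in each RNA library. In F2 libraries the parental alleles segregated. In H3K27me3 the members lie at 40.3% and 40.6% in first-cross M+P- libraries and at 52.1% and 50.6% in M+P+ libraries. In RNA of germlines the members lie below all genes in every library, and in H3K36me3 likewise.

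No member's allele balance was called to depend on history. Testing the interaction of allele and history with a minimum mean of 10 allele reads, 0 of 110 members were called for H3K36me3 in the first cross and 0 of 110 in the second, and 0% of all genes in each. At an unadjusted p under 0.05 there were 2 members in each. For H3K27me3 0 of 68 members were called in the first cross (11 at an unadjusted p under 0.05) and 1.29% of all genes (0.0170% higher and 1.27% lower), and in the second cross 0 of 89 (1 at an unadjusted p under 0.05) and 0% of all genes. DESeq2 called 0 members in each of these tests, having tested only 2 for first-cross H3K27me3. The median interaction for first-cross H3K27me3 was -0.68 over members and -0.30 over all genes, and for first-cross H3K36me3 -0.06 and 0.29. Leaving out first-cross M+P+ replicate 1 gave 12 calls in H3K36me3, and leaving out second-cross M+P- replicate 2 gave 2 in H3K27me3.

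Within M+P- germlines of the first cross, 6 of 68 members had H3K27me3 called lower on the sperm allele than on the oocyte allele and 0 higher, while 13.1% of all genes were lower and 5.88% higher. In M+P+ germlines 0 of 68 were called, with 8.31% of all genes. *rskd-1* had 28 and 61 reads (sperm and oocyte) in M+P- replicate 1 and 22 and 64 in replicate 2, and 45 and 60, and 19 and 47, in the M+P+ replicates. Its M+P- log2 ratio was -1.32 ± 0.32 (edgeR, adjusted p = 0.00362). ZK1127.4 had 1 and 24 reads, and 0 and 15, in M+P- and 4 and 13, and 7 and 5, in M+P+. The others were *mrpl-32*, a mitochondrial ribosomal gene, M05D6.2, *metl-13* and C25G4.2. DESeq2 called 1, and without M+P- replicate 2 there were 0.

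Over the 64 to 96 members with an allele read in each library, RNA came nearly evenly from both genomes. The mean sperm share over members was 47.8% to 50.4% over the 9 groups with allele counts, against 50.1% to 53.1% over all genes. F2 germlines, where the alleles segregated, are among the 9. No member showed an allele by history interaction: 0 of 76 in hermaphrodites, 0 of 74 in males, 0 of 59 in larvae and 0 of 75 in the F1, with 2, 5, 1 and 4 at an unadjusted p under 0.05 and 0 calls by DESeq2. Over all genes 0.407%, 0.283%, 0.0292% and 0.0490% were called. In hermaphrodites 1 member was called without M+P- replicate 2. The F1 M+P- group had 2 libraries here.

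Some members were called skewed to one parental genome in germline RNA reads of both histories. Comparisons of alleles within 1 history do not cancel a mapping bias. Between the alleles, edgeR called 2 members higher on the sperm allele and 3 lower in M+P- hermaphrodites, and 2 and 2 in M+P+ (16.9% and 13.5% of all genes). In males there were 4 and 6 in M+P- and 4 and 7 in M+P+ (21.7% and 19.9% of all genes), and in the F1 1 and 3 in M+P- and 1 and 5 in M+P+ (12.2% and 15.0%). L1 larvae had 0 of 59 calls in both (4.55% and 3.24% of all genes). These counts rested on few libraries: in hermaphrodites leaving out either M+P+ library left 0.

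T05H4.11 on chromosome V gave more H3K36me3 and more RNA reads from the sperm allele. Its H3K36me3 reads, sperm and oocyte, numbered 540 and 147, and 345 and 130, in F1 M+P- libraries, 299 and 92, and 112 and 78, in F2, and 383 and 158, and 336 and 136, in F1 M+P+. The F2 reads also depend on how the alleles segregated. Every library had more sperm than oocyte reads, first-cross libraries included. The log2 ratio was 1.64 ± 0.22 in F1 M+P- (edgeR, adjusted p = 3.12e-10) and 1.29 ± 0.22 in F1 M+P+ (adjusted p = 3.24e-06). The M+P- call was lost when either M+P- library was left out, and the M+P+ call when M+P- replicate 2 or M+P+ replicate 1 was. Its RNA reads numbered 345 and 261, and 396 and 255, in M+P- hermaphrodites (log2 ratio 0.52, adjusted p = 0.000115) and 352 and 277, and 400 and 276, in M+P+ (0.44, adjusted p = 0.00118). Of its H3K27me3 reads, 61.9% in the first cross and 58.1% in the F1 were from sperm, but F1 M+P+ replicate 1 had 46 sperm and 71 oocyte reads.

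F44G4.1 and *kdp-1* were skewed in RNA reads. F44G4.1 had 20 and 7 reads (sperm and oocyte), and 32 and 6, in M+P- hermaphrodites and 21 and 4, and 38 and 8, in M+P+, and 81.1% of its reads in males and 70.2% in larvae were from sperm. *kdp-1* leaned the other way, with 39.0% of reads from sperm in hermaphrodites, 35.6% in males, 38.6% in the F1 and 38.2% in larvae. Its log2 ratio in males was -0.71 in M+P- (adjusted p = 0.000557) and -1.05 in M+P+ (adjusted p = 3.55e-06). *mrpl-32*, with 30.0% to 41.9%, and *pyc-1* (-0.57 in M+P- and -0.35 in M+P+ males) leaned to the oocyte genome too.

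None of 20 listed genes of chromatin modification and transcription was among the 300. The list held *mes-4*, *met-1* and the PRC2 genes *mes-2*, *mes-3* and *mes-6*, beside genes of other histone modifications. *mes-4* came nearest, at rank 566 with a *him-8* z-score of 1.48, and *met-1* was at rank 2478 with 1.28. In RNA, *mes-4* averaged 69.9 RPKM in M+P+ hermaphrodite germlines and 5.64 in L1 larvae (log2 fold change 3.41 ± 0.15, adjusted p = 9.53e-07). In all, 18 of the 20 rose in germlines against larvae and none fell, the exceptions being *jmjd-2* (0.24) and *set-26* (-0.15). Over all genes tested, 28.9% rose and 54.3% fell. In male against hermaphrodite germlines *set-2*, *set-9*, *ama-1* and *set-26* rose and 11 fell, against 30.6% and 22.3% of all genes. None of the 20 was called by history in offspring RNA. Of all genes tested, 9.74% were called in first-cross hermaphrodites, but only 0.490% in males, 0.00684% in larvae and 0% in the F1.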

How the data were processed

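The members and the gene lists were chosen with earlier results of these data known. Per the file headers, the authors deposited raw counts per gene (paired-end for RNA), counts of reads on the sperm and the oocyte allele, a z-score per gene and CUT&RUN library, and mean RPKM per group. How the authors computed the deposited z-score values from the reads is something the sources used here do not give, but per the file headers there is one score per gene and library. Per the submitters' processing notes, the build was ce10, and the notes list DESeq, DESeq2 1.22.2, HTSeq, TopHat2 2.1.1 and Bowtie2 2.3.5.1 without their roles. The sources used here give neither the strand setting of the counting nor, for CUT&RUN, the use of exons, which leaves counts of overlapping, antisense and near-identical genes uncertain.

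From these, exon length was recovered from the authors' RPKM and the deposited counts (19795 genes, all 300 members), and RPKM per library was computed on it. Counts were tested with edgeR 4.0.16 in R 4.3.3 (quasi-likelihood test, TMM scaling, filterByExpr, Benjamini-Hochberg over all genes tested, threshold 0.05), with only the groups compared in each fit. The filter kept 289 to 297 members in RNA tests and 300 in mark tests. The 8 members left out of the hermaphrodite tests were Y73B6BL.45, C42C1.3, F35H8.4, Y57E12AL.2, F57C2.4, F59B2.15, C47E8.11 and T23G11.10. Allele counts were fitted with a term for each library, and the interaction of allele with history was tested. SE is that of the log2 fold change. DESeq2 1.42.0, RLE scaling, no filter, a replicate block and leaving out each library were the alternatives. Tests were checked on simulated counts. Replicate numbers went together in F2 and F1 M+P+ RNA, the correlations of same-numbered deviations being 0.13 to 0.39, and the blocked test there called 0 members too. They also went together in several mark comparisons, given in the last section with the blocked counts.

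Gene names, chromosomes and neighbours came from RefSeq (assembly WBcel235, 19762 of 20258 genes matched), and no coordinates are printed as the build differs. No value column lacked a label (0 unused), and 3 repeated names were dropped from the score table. None of 47 pairs of libraries in a group was identical (0). The labels do not give parents or days, so p-values measure the spread between these samples. Genes named in the text are the top 10 and the edge of the ranking, up to 8 called higher and 8 lower per comparison with the smallest adjusted p, the 5 highest in H3K27me3, the 5 highest and 5 lowest in RNA of *him-8* fathers, up to 4 members per list, and the 3 highest and 3 lowest allele shares with at least 30 allele reads.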

Additional observations from a re-analysis of the deposited data

Results flagged for a closer look

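In 4 M+P+ male germline libraries *pyc-1*, the pyruvate carboxylase gene, had 206 RPKM in replicate 1 and 241, 245 and 242 RPKM in the others. The gap of replicate 1 to its nearest neighbour was 0.897 of the group's range, above the critical value of Dixon's test for 4 samples. Groups of 4 checked in this way numbered 20, and chance alone marks about 1 in 20 such groups. All 4 male values stayed above the 100.1 and 92.7 RPKM of the hermaphrodite M+P+ libraries.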

How the results depend on the processing

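Counts of called members depended on the processing mainly in small groups. For *mes-3* against *him-8* fathers, 5 members became 8 with DESeq2, 15 with no filter, 35 with a replicate block, and 0 to 6 with 1 library left out. With no filter, L1 larvae by history gave 4, F2 against F1 M+P+ RNA 1, and male against hermaphrodite germlines 84 in place of 140. Outside F2 and F1 M+P+ RNA, same-numbered deviations also went together in first-cross H3K27me3 (0.67) and H3K36me3 (0.37) by history. The same held for F1 H3K27me3 (0.17) and F1 H3K36me3 (0.14) by history. It held too for F2 against F1 M+P+ H3K36me3 (0.16) and first-cross hermaphrodite RNA by history (0.16). With 2 libraries per group each of these is a single correlation, and the labels do not name pairs. A replicate block gave 7 for H3K36me3 in the F1 by history, 77 for H3K36me3 in F2, and 6 for first-cross H3K27me3, where the test without it gave 0 in each, and it changed no other count of members by over 1.5 times. With 1 library left out, calls ran from 1 to 5 in hermaphrodite RNA by history, 51 to 145 between the sexes, 0 to 199 for first-cross H3K36me3, 0 to 1 for F1 H3K36me3, 0 to 275 for F2 H3K36me3, 0 to 3 for F1 H3K27me3 and 23 to 100 for F2 H3K27me3. For the interaction of allele and history they ran from 0 to 12 for first-cross H3K36me3, 0 to 2 for second-cross H3K27me3 and 0 to 1 for hermaphrodite RNA. The cause of these changes was not tested. No direction turned round in the tests of single genes. The tests within 1 history of sperm against oocyte allele, added after seeing the data, moved in 51 settings. Depth limits H3K27me3 most, since the members took 0.183% to 0.611% of its counts, and allele tests reached 59 to 110 members. With 2 libraries per mark and group, a difference was not detectable where the libraries of a group differed as much as the groups.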
